A study of Mus musculus with 3 samples.

Results

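The genes described here are 36 genes of cytokine receptor signalling in mouse CD4 T cells. They were chosen by name, with earlier results of these data known. The set comprises 15 receptor chains, the 4 Janus kinases, 5 STAT transcription factors, the 7 SOCS genes with Cish, and the 4 PIAS genes. Each gene took the mean of its probes that carry 1 gene symbol, and 34 of the 36 had such a probe, out of 19938 genes in all. Il2rg, which encodes the common gamma chain, had no listed probe. Jak3 was matched only by a probe shared with Insl3, which read -0.25 in Th0, 0.0062 in Th22 and 0 in Th17 and is not counted. Of the 34 genes 31 rested on 1 probe, Socs2 and Socs3 on 2 and Socs6 on 3.

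Expression was measured on single-colour Affymetrix arrays in CD4 T cells of OT-II mice, strain B6.Cg-Tg(TcraTcrb)425Cbn/J, whose transgenic receptor recognises an ovalbumin peptide. In all 3 groups spleen cells sorted as naive were activated by that peptide on T-cell-depleted splenic antigen-presenting cells from Il23a-/- mice, in serum-containing medium, and the T cells were recovered on magnetic beads after 60 hours. Th0 cells received no cytokine, Th22 cells IL-6, and Th17 cells IL-6 with TGFβ, for a search of factors that set the Th22 and Th17 programs apart. The sources used here give neither the age of the mice nor how many were pooled. Each group had 1 array, so no test was possible, no difference has a replicate check, and array and condition cannot be told apart.

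IL-6 acts by binding its own receptor chain, IL-6Rα, and then the signalling chain gp130, encoded by Il6st, which LIF, oncostatin M and IL-27 receptors also use. Janus kinases bound to such chains phosphorylate STAT proteins, which move to the nucleus, and IL-6 works mainly through STAT3, the factor that Th17 differentiation needs. STATs induce SOCS genes, whose products bind receptors or kinases and close the loop, while PIAS proteins are SUMO ligases that restrain STATs in the nucleus. Receptors built on the common gamma chain (IL-2, IL-4, IL-7, IL-15, IL-21) also use Janus kinases, with STAT5, STAT6 or STAT3. Type I interferon receptors use STAT2 among others.

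Promoter windows of RefSeq genes (build GRCm38.p6, 250 bases before and 50 after the start) are printed for genes the account turns on: Socs3, Cish and Socs1, as feedback inhibitors that STATs induce, and Il6st and Il15ra, the genes with the largest differences in either direction among those described. Socs2 had no window among those available. All windows printed read 5′ to 3′ on the strand of the gene. Socs3 lies at chr11:117969317-117969616 on the minus strand, Cish at chr9:107296409-107296708 on the plus strand, Socs1 at chr16:10785487-10785786 on the minus strand, Il6st at chr13:112463820-112464119 on the plus strand and Il15ra, in the second of its 2 windows, at chr2:11705462-11705761 on the plus strand. Capitals mark matches to the STAT motif TTCNNNGAA, which is its own reverse complement, and to GAAANNGAA, a core of the interferon-stimulated response element, on either strand.
Socs3: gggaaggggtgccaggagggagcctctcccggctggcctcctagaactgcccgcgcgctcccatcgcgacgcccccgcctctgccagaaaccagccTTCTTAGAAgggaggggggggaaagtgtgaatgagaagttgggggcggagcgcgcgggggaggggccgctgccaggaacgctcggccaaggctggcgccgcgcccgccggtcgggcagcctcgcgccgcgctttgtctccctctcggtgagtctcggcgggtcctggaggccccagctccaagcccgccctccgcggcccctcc
Cish: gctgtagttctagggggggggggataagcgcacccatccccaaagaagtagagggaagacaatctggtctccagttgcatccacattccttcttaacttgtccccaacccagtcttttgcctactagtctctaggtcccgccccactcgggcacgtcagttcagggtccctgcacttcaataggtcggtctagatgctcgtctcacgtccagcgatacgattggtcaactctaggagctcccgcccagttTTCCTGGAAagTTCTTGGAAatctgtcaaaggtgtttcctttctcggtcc
Socs1: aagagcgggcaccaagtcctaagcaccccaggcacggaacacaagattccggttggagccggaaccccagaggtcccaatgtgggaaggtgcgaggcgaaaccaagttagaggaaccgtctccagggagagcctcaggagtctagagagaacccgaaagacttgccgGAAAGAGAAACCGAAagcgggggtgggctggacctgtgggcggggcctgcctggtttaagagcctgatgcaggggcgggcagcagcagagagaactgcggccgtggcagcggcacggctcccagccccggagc
Il6st: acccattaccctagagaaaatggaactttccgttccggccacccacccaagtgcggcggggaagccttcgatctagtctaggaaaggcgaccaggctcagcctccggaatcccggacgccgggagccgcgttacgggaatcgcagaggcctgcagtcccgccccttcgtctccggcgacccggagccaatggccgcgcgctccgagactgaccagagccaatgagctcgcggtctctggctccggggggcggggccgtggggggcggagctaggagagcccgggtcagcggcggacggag
Il15ra: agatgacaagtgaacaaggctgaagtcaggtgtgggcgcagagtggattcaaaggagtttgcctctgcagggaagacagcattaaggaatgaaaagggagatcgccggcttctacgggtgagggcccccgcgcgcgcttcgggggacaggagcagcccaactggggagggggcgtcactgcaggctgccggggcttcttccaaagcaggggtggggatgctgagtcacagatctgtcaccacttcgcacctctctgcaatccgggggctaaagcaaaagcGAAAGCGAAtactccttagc

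The Socs3 window held 1 STAT match, TTCTTAGAA, at bases 97 to 105 of the window, and the Cish window held a pair, TTCCTGGAA and TTCTTGGAA, at bases 251 to 259 and 262 to 270. In Socs1 the capitals are a pair of overlapping matches to the interferon core, bases 168 to 176 and 174 to 182, and in the Il15ra window 1 match, GAAAGCGAA, at bases 281 to 289, after the start. Il6st held neither motif, and none of the 33 windows of 28 listed genes held the Smad palindrome GTCTAGAC, which 0.213% of all 32851 windows did. The STAT motif was in 5 of those 33 windows (15.2%), those of Socs3, Cish, Il7r, Ifnar1 and Ifnar2, against 8.3% of all windows. The interferon core was also in 5 (15.2%), both of Il15ra and those of Jak3, Socs1 and Stat2, against 8.56% of all. The windows of the listed genes leave out a chromosome that the windows of all genes include. A match is a run of letters and not a measured binding site.

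Values below are log2 differences from the median of the same probe over the 3 arrays, as deposited, so a value of 0 marks the middle array and not an absent transcript. The log base is not given in the sources used here and base 2 was assumed, as was that a higher value is higher expression. Levels were lost in the centring, and with them any measure of signal against background. Of all genes 37.7% were exactly equal on the 3 arrays, and how such ties arose is not given either. As a yardstick, 95% of genes with several probes, of which at least 1 differed, had probes within 0.33 log2 of each other between Th22 and Th0, 0.41 between Th17 and Th22 and 0.47 between Th17 and Th0. Those limits, called the probe spread below, cover probe error and leave out the spread between cultures. A fold in bulk RNA cannot tell fewer cells of a type from less RNA per cell. The 10 measured pan T cell markers lay within 2-fold on all arrays and none was equal on all 3. Their summed log2 values were -0.29 in Th0, 1.38 in Th22 and -0.84 in Th17. Cd3d, Cd4 and Cd247 were lower in Th17 than in Th22 past the probe spread (-0.59, -0.55 and -0.44 log2), while Zap70 and Lat were higher, inside it. Cd28 was higher in Th22 than in Th0 past the probe spread (0.42 log2). Of 14 myeloid and dendritic markers 8 were equal on all 3 arrays and none reached 2-fold, with summed log2 values of 0.27 in Th0, 0.35 in Th22 and 0.0057 in Th17. Of 9 B cell markers 5 were equal throughout and Ebf1 alone passed 2-fold (0 in Th0, 1.62 in Th22 and -1.05 in Th17), and the sums were -0.16, 1.53 and -1.05. Of 6 CD8 and NK cell markers 2, Ncr1 and Klrb1c, were equal throughout. Gzma and Cd8b1 passed 2-fold (-2.28 and -1.14 in Th17), and after quantile normalization Gzma and Eomes did. Cd8a read 0.05 in Th0, -0.15 in Th22 and 0 in Th17, and Eomes 0.79, 0 and 0. The sums were 1.72, -0.15 and -3.42, and that of Th17 came from Gzma and Cd8b1 alone. The part of these cells in the differences below was not tested.

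**Figure D1:**
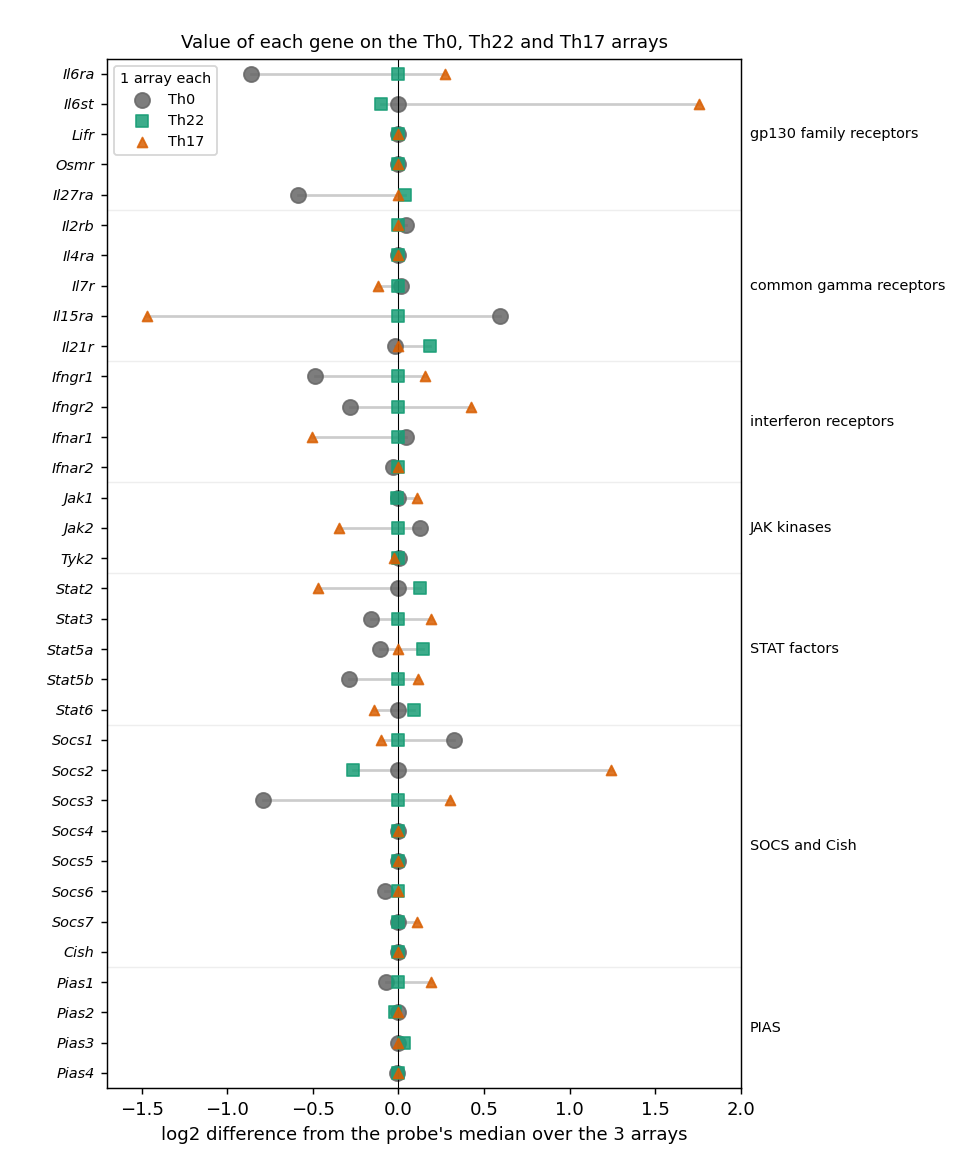
Value of each of the 34 measured genes on the Th0 (grey circle), Th22 (green square) and Th17 (orange triangle) arrays, as the log2 difference from the median of its probes over the 3 arrays, with 1 array a group and no error bars. Il6st and Socs2 stand out to the right on the Th17 array, at 1.75 and 1.24, and Il15ra to the left at -1.47, while Il6ra, Socs3 and Il27ra are lowest on the Th0 array, at -0.86, -0.79 and -0.59.

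The genes of both chains of the receptor that IL-6 engages read higher in Th17 than in Th0, each in a different pattern over the arrays. Il6ra, the ligand-binding chain, read -0.86 in Th0, 0 in Th22 and 0.27 in Th17. It was 1.82-fold higher in Th22 than in Th0 and 2.19-fold higher in Th17 than in Th0, with 1.21-fold between Th22 and Th17. Most of its difference thus lay between cells without and with IL-6, and the step from Th22 to Th17 was inside the probe spread. Il6st, the gp130 signalling chain, read 0 in Th0, -0.10 in Th22 and 1.75 in Th17. Here Th0 and Th22 were alike to within the probe spread and the Th17 array stood alone, 3.62-fold above Th22 and 3.37-fold above Th0. By size of the difference Il6st held rank 70 of 19938 from the highest for Th17 against Th22 and rank 118 for Th17 against Th0. With the centred values of the arrays quantile normalized it was 2.54-fold above Th22.

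The partner chains of gp130 did not share that difference. Il27ra, which pairs with gp130 to bind IL-27, read -0.59 in Th0, 0.04 in Th22 and 0 in Th17. It was 0.62 log2 higher in Th22 and 0.59 higher in Th17 than in Th0, past the probe spread but inside 2-fold, with Th22 and Th17 level. Lifr and Osmr, the partner chains for LIF and oncostatin M, were exactly equal on the 3 arrays. Neither can be called expressed or silent from centred values. Among the ligands of these receptors Il6, Lif, Osm, Clcf1 and Il27 lay within 2-fold in all comparisons, and Ebi3, a subunit of IL-27, read 0.57, 0 and -0.70 in Th0, Th22 and Th17.

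Among receptors of the common gamma family Il15ra differed and the other 4 measured genes hardly did. Il15ra, the high-affinity chain that holds and presents IL-15, read 0.59 in Th0, 0 in Th22 and -1.47 in Th17. It was lower at each step, past the probe spread: from Th0 to Th22 by 1.51-fold, from Th22 to Th17 by 2.77-fold and from Th0 to Th17 by 4.18-fold. It was the largest difference of the 34 genes, at rank 95 of 19938 from the lowest for Th17 against Th0. With quantile normalization the step from Th22 to Th17 came to 1.88-fold, under the threshold, and that from Th0 to Th17 to 3.31-fold. Splenic antigen-presenting cells and NK cells also express Il15ra. Their markers are given above, and their part in this difference was not tested.

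Il2rb, the chain that IL-2 and IL-15 share, read 0.05 in Th0 and exactly 0 in Th22 and Th17. Il4ra, the IL-4 and IL-13 receptor chain, differed by 0.0012 log2 at most. Il7r, the alpha chain of the IL-7 receptor, read 0.02, 0 and -0.12 in Th0, Th22 and Th17. Il21r read -0.02, 0.18 and 0, so its highest value was in Th22, 1.15-fold above Th0. All 4 stayed inside the probe spread in every comparison. Of their ligands, Il2 read 0.21 in Th0, 0 in Th22 and -3.10 in Th17, a value 8.58-fold lower in Th17 than in Th22 and 3.71-fold lower after quantile normalization. Il21 ran the other way, at -2.16 in Th0, 0 in Th22 and 0.05 in Th17, or 4.46-fold and 4.61-fold above Th0. Il4 read 2.20, 0 and -0.41, and Il13 2.94, 0 and -1.09, both highest in Th0. Il15 itself was exactly equal on the 3 arrays. Il2rb, Il4ra and Il21r thus differed by 0.20 log2 at most, on arrays between which Il2, Il4, Il13 and Il21 differed by 2.21 log2 or more.

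The interferon gamma receptor genes were higher, and the type I chain Ifnar1 lower, in Th17. Ifngr1, the ligand-binding chain, read -0.49 in Th0, 0 in Th22 and 0.16 in Th17. Ifngr2, the chain that carries JAK2, read -0.28, 0 and 0.42. Both ran in the order Th0, Th22, Th17, and in Th17 they were 1.56-fold and 1.63-fold higher than in Th0. Ifngr1 passed the probe spread between Th0 and Th22, Ifngr2 between Th22 and Th17. Ifnar1 read 0.05 in Th0, 0 in Th22 and -0.51 in Th17, so it was 1.42-fold lower in Th17 than in Th22 and 1.47-fold lower than in Th0. Ifnar2 read -0.03 in Th0 and exactly 0 on the other arrays. No interferon receptor gene reached 2-fold. Beside them the gene of the ligand, Ifng, read 3.06 in Th0, 0 in Th22 and -0.66 in Th17.

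The kinases differed little between arrays. Jak1, which serves gp130, common gamma and interferon receptors, read 0 in Th0, -0.0055 in Th22 and 0.11 in Th17. Tyk2, the partner of IL-12, IL-23 and type I interferon receptors, read 0.0035, 0 and -0.03 in Th0, Th22 and Th17. Jak2, which serves the interferon gamma receptor and IL-12 and IL-23 receptors, read 0.13 in Th0, 0 in Th22 and -0.35 in Th17. Its 1.39-fold lower value in Th17 than in Th0 (-0.4743 log2) lay just past the probe spread of 0.4688, and the other comparisons lay inside.

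None of the 5 STAT genes reached 2-fold. Stat3, the factor downstream of IL-6, read -0.16 in Th0, 0 in Th22 and 0.19 in Th17, and was 1.27-fold higher in Th17 than in Th0, inside the probe spread. Stat5a read -0.11, 0.14 and 0, and Stat5b -0.29, 0 and 0.11, in the order Th0, Th22, Th17. These paralogues are nearly identical, so how the signal divides between them is uncertain. Thus all 5 STAT genes read higher in Th22 than in Th0, by 0.09 to 0.29 log2, every one of them inside the probe spread of 0.33. Stat6, which carries the IL-4 signal, read 0, 0.09 and -0.14. Stat2, a factor of the type I interferon response, read 0 in Th0, 0.13 in Th22 and -0.47 in Th17. It was the single STAT among the 5 past the probe spread, 1.51-fold lower in Th17 than in Th22 and 1.39-fold lower than in Th0 (-0.4704 log2, barely past the limit). Stat4, which carries the IL-12 signal and is not among the 5, read 0.08, 0 and -1.03 and was 2.04-fold lower in Th17 than in Th22, or 1.55-fold lower after quantile normalization.

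Among the feedback inhibitors Socs2 and Socs3 were higher in Th17, and the remaining 6 genes lay inside the probe spread. Socs3, which binds gp130 and shuts off IL-6 signalling, read -0.79 in Th0, 0 in Th22 and 0.30 in Th17. It was 1.73-fold higher in Th22 and 2.13-fold higher in Th17 than in Th0, an order and sizes close to those of Il6ra. Its probes gave 1.78-fold and 2.55-fold for Th17 against Th0, both upward, so the 2-fold call rests on their mean. Socs2, known for restraining growth hormone and STAT5 signals, read 0 in Th0, -0.27 in Th22 and 1.24 in Th17. It was 2.85-fold higher in Th17 than in Th22 and 2.37-fold higher than in Th0, with the Th17 array alone apart, as for Il6st. Its probes gave 2.42-fold and 3.35-fold for Th17 against Th22. For Th17 against Th0 they gave 1.997-fold and 2.80-fold, so that 2-fold call rests on their mean. After quantile normalization the difference from Th22 was 2.87-fold and that from Th0 1.78-fold, under the threshold.

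Socs1, which inhibits kinases of interferon and common gamma receptors, ran the opposite way, at 0.32 in Th0, 0 in Th22 and -0.10 in Th17. Its Th17 value was below that of Th0 by 1.34-fold, inside the probe spread. Cish, the STAT5-induced inhibitor with the pair of STAT matches shown above, was exactly equal on the 3 arrays, as were Socs4 and Socs5. Socs7 read 0.11 in Th17 and 0 on the other arrays. Socs6 read -0.08 in Th0 and 0 on the others, from 1 of its 3 probes, the rest being equal throughout. Of the 5 genes whose window held the STAT motif, Socs3 was higher and Ifnar1 lower in Th17 than in Th0, past the probe spread, while Il7r and Ifnar2 lay inside it and Cish was tied. The PIAS genes differed by 0.26 log2 at most: Pias1 read -0.07, 0 and 0.19 in Th0, Th22 and Th17, and Pias2, Pias3 and Pias4 stayed within 0.03 log2.

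**Figure D2:**
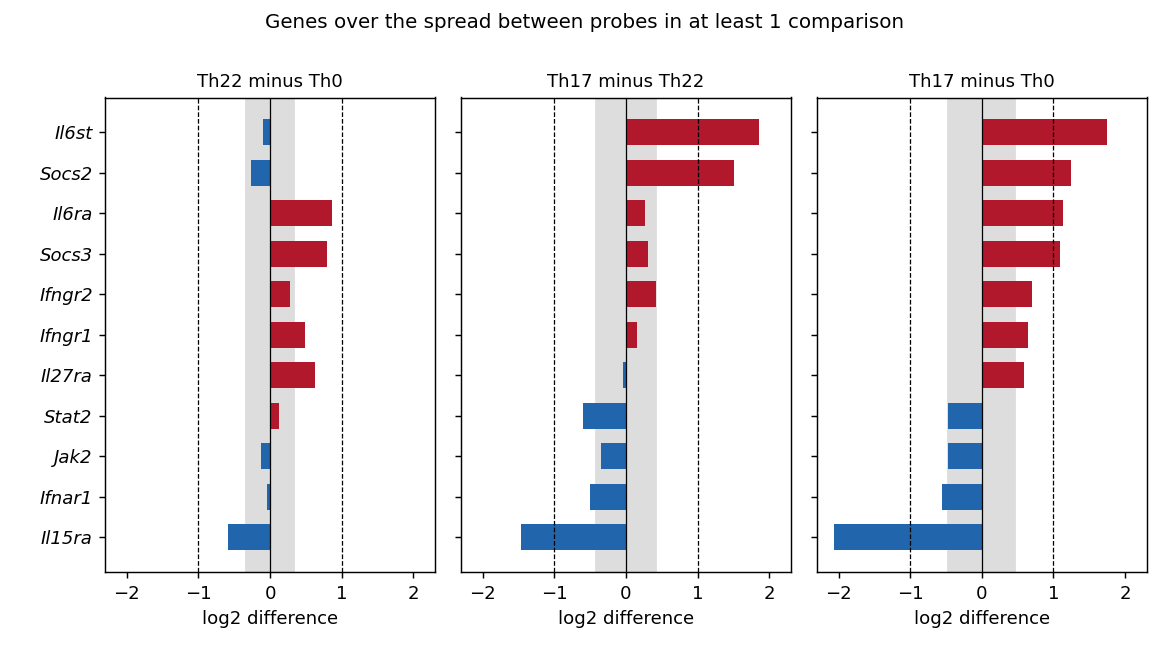
Log2 difference of the 11 genes that passed the probe spread in at least 1 comparison, for Th22 minus Th0, Th17 minus Th22 and Th17 minus Th0. Red bars are higher and blue bars lower in the first-named array, the grey band is the probe spread and the dashed lines mark 2-fold. Il6ra, Socs3, Il27ra and Ifngr1 leave the band in the first panel, Il6st, Socs2, Ifngr2, Ifnar1 and Stat2 in the second, and Il15ra in both.

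Counted together, 0 of the 34 genes were at least 2-fold apart for Th22 against Th0, where 0.808% of all genes were (0.547% higher and 0.261% lower). For Th17 against Th22 the count was 3, Il6st and Socs2 higher and Il15ra lower, or 8.82% against 2.61% of all genes (1.1% higher and 1.5% lower). For Th17 against Th0 it was 5, Il6st, Socs2, Il6ra and Socs3 higher and Il15ra lower, or 14.7% against 3.03% (1.47% higher and 1.56% lower). Among genes that were not equal on all 3 arrays the background shares were 1.3%, 4.18% and 4.86% in the same order, and 5 of the 34 genes (14.7%) were equal throughout against 37.7% of all genes. Of all genes 109 were higher and 52 lower in Th22 than in Th0, and 150 and 158 after quantile normalization, which forces equal spread on the arrays. The 3 comparisons share arrays, and each gene's difference of Th17 from Th0 is the sum of the other 2. The genes were chosen with earlier results of these data known. These shares, and those past the probe spread below, therefore cannot show whether the set differs from other genes.

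Past the probe spread there were 5 of the 34 genes for Th22 against Th0 (14.7%, background 6.49%), 6 for Th17 against Th22 (17.6%, background 8.75%) and 11 for Th17 against Th0 (32.4%, background 8.2%). Genes not equal on all 3 arrays had backgrounds of 10.4%, 14.0% and 13.1%. Set out by step, 4 genes passed only between Th0 and Th22 (Il6ra, Il27ra, Ifngr1 and Socs3, all higher with IL-6). Another 5 passed only between Th22 and Th17, of which Il6st, Ifngr2 and Socs2 were higher and Ifnar1 and Stat2 lower with TGFβ. Il15ra alone passed at both, lower each time, and 24 passed at neither, Jak2 among them. Whether the steps of a gene differ from each other was not tested. Over these steps Ifngr2 lay nearest the limit, at 0.4237 log2 against 0.4141. For Th17 against Th0 Stat2 (-0.4704) and Jak2 (-0.4743) lay nearer theirs, 0.4688. Quantile normalization, set beside the same limits, moved some calls. Ifngr2 (0.33) and Ifnar1 (-0.315) then lay inside for Th17 against Th22. Socs2 (-0.69) and Socs1 (-0.42) lay outside for Th22 against Th0. For Th17 against Th0 Ifnar1 (-0.3515), Jak2 (-0.3484) and Stat2 (-0.2934) lay inside and Socs1 (-0.4789) outside.

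For Th17 against Th0 7 of 14 receptor genes passed the probe spread, against 2 of 8 kinases and STATs and 2 of 12 inhibitors, beside 8.2% of all genes and 13.1% of genes not equal on all 3 arrays. At 2-fold the counts were 3 of 14, 0 of 8 and 2 of 12, beside 3.03% of all genes, and whether roles differ was not tested. The median size of that difference was 0.35 log2 in receptor genes, 0.24 in kinases and STATs and 0.04 in inhibitors, beside 0.0096 over all genes and 0.09 over genes not equal on all 3 arrays. The median with its sign was 0.59 log2 for the gp130 family, 0.34 for the interferon receptors and -0.05 for the common gamma family, against 0 for all genes. It was -0.03 for the kinases, 0.11 for the STATs, 0.04 for SOCS genes with Cish and 0.0049 for PIAS genes. With 3 to 8 genes a role these medians describe the genes and no more.

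**Figure D3:**
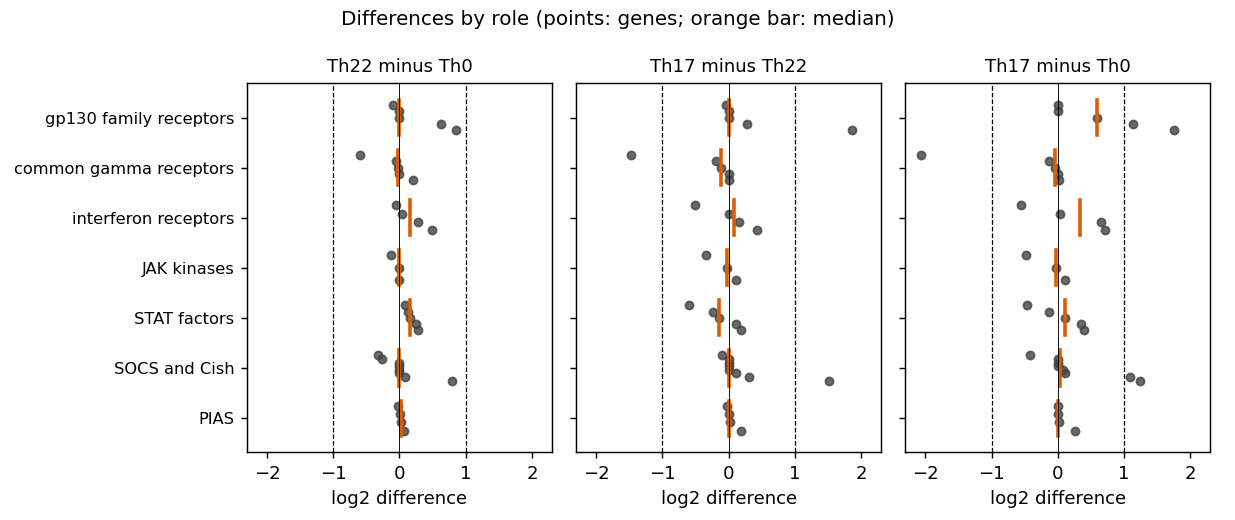
Log2 difference of each gene (point) by role for Th22 minus Th0, Th17 minus Th22 and Th17 minus Th0, with the median of the role as an orange bar and 2-fold as dashed lines. In the last panel the gp130 family median is 0.59, and kinases, STATs and PIAS genes all lie inside 2-fold.

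Other genes of the same signalling system were described from lists chosen with earlier results of these data known. Of 27 further cytokine receptor genes 23 lay within 2-fold for Th17 against Th22, 4 were lower and 0 higher, with a median of 0. Of all genes 1.5% were lower and 1.1% higher. Il10ra, the IL-10 binding chain, read 0.23 in Th0, 0 in Th22 and -2.82 in Th17, and was 7.08-fold lower in Th17 than in Th22, or 3.23-fold after quantile normalization. Il12rb2, the Th1 chain of the IL-12 receptor, read 0, 0.14 and -2.41 and was 5.88-fold lower, or 2.95-fold. Both resembled Il15ra in being lowest in Th17, but unlike it they were level between Th0 and Th22. Il13ra1, an IL-13 receptor chain, read -0.55 in Th0, 1.46 in Th22 and 0 in Th17, highest in Th22, as was Il23r at -1.87, 2.87 and 0. Il2ra, the alpha chain of the IL-2 receptor and a STAT5 target, stayed within 0.14 log2.

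Of 15 phosphatase and adaptor genes of the pathway 14 lay within 2-fold in every comparison. The exception was Usp18, which blunts type I interferon signalling at IFNAR2 and is itself interferon-induced. It read 1.35 in Th0, 0 in Th22 and -1.30 in Th17 a 6.27-fold difference between Th0 and Th17. Of 19 ligand genes 1 was higher and 3 lower in Th22 than in Th0, beside 0.547% and 0.261% of all genes. For Th17 the counts were 0 and 2 against Th22 and 1 and 5 against Th0, and all 3 medians were 0. The shares of all genes were 1.1% higher and 1.5% lower against Th22, and 1.47% and 1.56% against Th0. Quantile normalization left 1 of the 2 lower against Th22, Il2, with Il13 at 1.58-fold. Those past 2-fold were the cytokines given above.

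Genes known as targets of STAT3, STAT6 and STAT5 were counted beside the STAT genes. These lists too were chosen with earlier results of these data known, and that of STAT3 includes Il17a and Il17f, which mark Th17 cells. The counts below therefore cannot show whether the targets of a STAT differ from other genes. Of all genes 0.547% were at least 2-fold higher and 0.261% lower for Th22 against Th0. The shares were 1.1% and 1.5% for Th17 against Th22, and 1.47% and 1.56% for Th17 against Th0. Of 16 STAT3 targets, Socs3 included, 5 were at least 2-fold higher and 0 lower for Th22 against Th0 (median 0.75 log2, and 5 and 1 after quantile normalization, with Il10 3.33-fold lower), and 10 and 0 for Th17 against Th0 (median 1.94). The 10 were Il17f, Il17a, Maf, Il10, Rora, Il21, Ahr, Bcl6, Il23r and Socs3. Stat3 itself differed by 1.27-fold, and STAT3 activity was not measured. For Th17 against Th22, 7 were higher and Il23r was lower, with a median of 0.18 log2. Quantile normalization left 5 of the 7, and Bcl6 (0.68 log2) and Il17f (0.93 log2) then lay under 2-fold.

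STAT6 targets and STAT5 targets gave other pictures, beside the same shares of all genes. Of 11 STAT6 targets 5 were lower and 0 higher for Th22 against Th0 (median -0.90 log2, and 7 and 0 after quantile normalization, with Gfi1 and Il24 added), and 6 and 0 for Th17 against Th0 (median -1.11), with Gata3 22.0-fold (13.2-fold after quantile normalization) and Epas1 6.43-fold lower. Il4, Il13, Gfi1 (2.87-fold) and Il24 (2.16-fold) completed the 6. Ccr8 read 0.33 in Th0, -2.26 in Th22 and 0 in Th17, lowest in Th22. Stat6 and Il4ra stayed inside the probe spread beside them, and Il4 was lower as given above. Of 16 STAT5 targets, which include Cish, Socs1, Socs2 and Il2rb, 2 were higher (Foxp3, 11.3-fold or 6.9-fold after quantile normalization, and Socs2) and 2 lower (Tnfsf11, 3.37-fold, and Pim2, 2.27-fold, under 2-fold after quantile normalization) for Th17 against Th0, with a median of -0.13 log2. Socs2 and Cish are both textbook STAT5 targets, but Cish was tied on the 3 arrays. A tie cannot be told from a transcript that was not detected, so the 2 genes cannot be compared. Within each list many genes answer to other factors too, and the share of any STAT in a gene's difference was not measured.

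**Figure D4:**
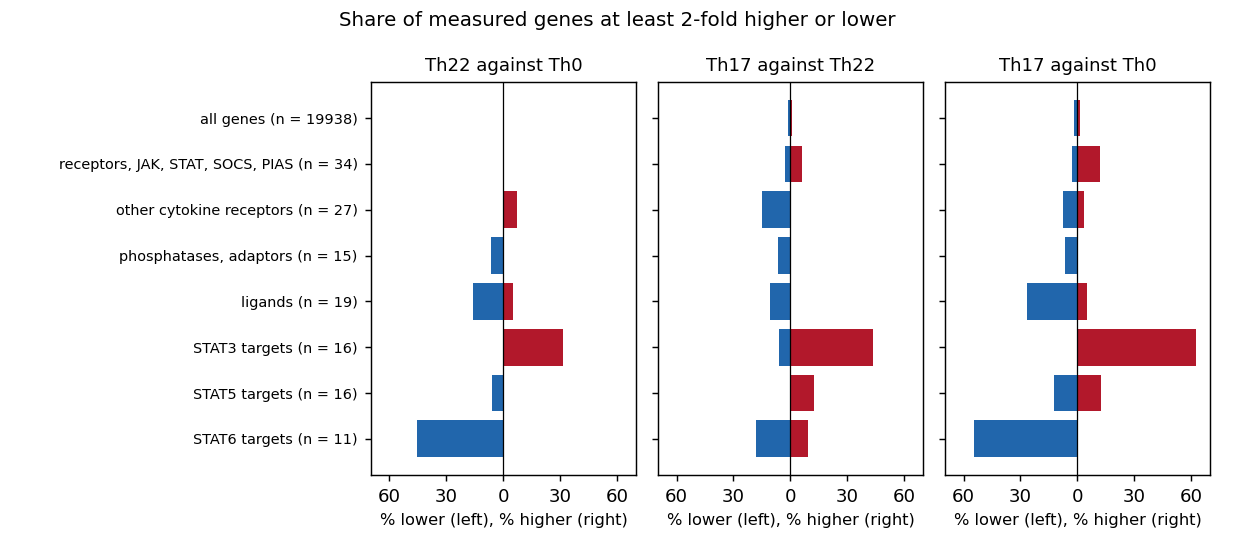
Share of measured genes at least 2-fold lower (blue, left) or higher (red, right) in each comparison, for all genes, for the 34 receptor, kinase, STAT, SOCS and PIAS genes, and for 6 lists of related genes with their numbers. Of the 34 genes 0, 3 and 5 are past 2-fold in the order of the panels. These are 0%, 8.82% and 14.7%, against 0.808%, 2.61% and 3.03% of all genes. For Th17 against Th0 10 of 16 STAT3 targets are higher and 6 of 11 STAT6 targets lower. The 34 genes and the lists were chosen with earlier results of these data known.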

How the data were processed

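The deposited table held log2 values (base assumed) for 28853 probes on 3 arrays. Per the labels these were biotin-labelled Affymetrix arrays of Th0, Th22 and Th17 cells, with groups taken from the subset label. The sources used here do not state the authors' probe summary, background correction, normalization or software. The values showed centring, with a median of exactly 0 across arrays in all 28853 probes. Probe names came from the platform annotation, updated by Entrez identifier to GRCm38.p6 names for 21698 of the 21789 single-symbol probes. The 1621 probes with several symbols and the 5443 not listed were left out. Probes of a gene were averaged, giving 19938 genes, 999 of them with several probes, whose first 2 probes by identifier gave the probe spread over those where at least 1 differed. A gene was counted at 2-fold. With 1 array a group no test was run, and so few arrays limit the precision.

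The members and lists were chosen with earlier results of these data known, and 1 further gene and a list that depends on it are not reported here. Named genes are all members and, of the lists, genes past 2-fold in any comparison, with others chosen after their values were seen. The interferon and Smad motifs were also chosen after the values were seen. Alternatives were quantile normalization, the probe of largest range, probes with several symbols, thresholds of 1.5-fold and 3-fold, and natural logs. Quantile normalization was applied to the deposited values, already centred on the median of each probe. It thus made the distributions of centred differences equal between arrays, and not those of signals. Python 3.11.15, pandas 2.3.3 and numpy 2.4.6 were used, and the counting was tested on simulated data.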

Additional observations from a re-analysis of the deposited data

How the results depend on the processing

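Among the 34 genes no difference past 2-fold changed direction under quantile normalization, the probe of largest range or the counting of probes with several symbols. Quantile normalization took Il15ra under 2-fold for Th17 against Th22 and Socs2 for Th17 against Th0, and the other settings named ended no call. Calls past the probe spread that it moved are given with the steps above. Over all genes, Th22 against Th0 had 308 past 2-fold after quantile normalization. Over all 19938 genes, in the order Th17 against Th22, Th22 against Th0, Th17 against Th0, the counts at 1.5-fold were 1093, 480 and 1260, and at 3-fold 244, 59 and 290. If the values were natural logs, 859, 343 and 1021 would lie past 2-fold. Of the 34 genes, in the same order, 4, 4 and 8 passed 1.5-fold, and 1, 0 and 2 passed 3-fold. With natural logs 3, 2 and 6 of the 34 would pass 2-fold. These moves follow from the thresholds themselves. Leaving out a replicate could not be done, and no paired analysis was possible because each group had 1 array. Without levels, genes near background cannot be told from others, and a tie cannot be told from a transcript that was not detected.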
